A study of Mus musculus with 27 samples.

Results

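The retinas of 7 wildtype mice described here are the unmodified animals of a study of 27 mice, all 9 months old, in which a heterozygous loss of Gne was crossed with a loss of C3. They were chosen by their labels, Gne+/+ and C3+/+, and other genotypes are used only to check the C3 label. Mice 7 and 8 were sequenced in run 2, and mice 1, 2, 4, 5 and 6 in run 1. The RNA came from retinal whole-mounts of single mice, and 100 ng of total RNA went into each QuantSeq library, a kit that reads the 3′ end of each transcript. Levels are in CPM, a gene's share of a library's counts scaled to a common total, after adjustment of the library sizes with TMM factors, and a rank of 1 is the highest CPM of 55487 genes.

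The labels give neither the sex nor the strain of the mice, and they do not say whether 1 or both eyes were used. The summed level of 4 Y-linked genes was 322 and 288.7 CPM in mice 7 and 8 of run 2, and between 0.379 and 1.56 CPM in the 5 mice of run 1. The sequencing run and this difference therefore cannot be told apart in wildtype retina, and ranks are given within each run. The libraries of mice 7 and 8 held 22612693 and 21035435 counts, and those of run 1 between 17736611 and 21276743. C3 was at 57.8 to 98.9 CPM by total counts in the 2 wildtype libraries of run 2 and at 93.7 to 206 in those of run 1, against at most 3.98 in every library labelled C3-/-. Of the defining markers, the rod gene Gnat1, the cone gene Opn1sw, the rod bipolar gene Prkca and the Mueller glia gene Glul reached at least 197 CPM in all 7 mice, and the astrocyte gene Gfap stayed under 10 CPM in all. Spearman correlations of gene levels were 0.951 between the 2 libraries of run 2, 0.893 to 0.961 within run 1 and 0.807 to 0.872 between runs. These correlations run over genes and are given as descriptions.

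The vertebrate retina turns light into nerve signals in its rods and cones. In rods, light acts on a visual pigment, which switches on the G protein transducin. Transducin frees phosphodiesterase 6 from its inhibitory subunit, cyclic GMP falls and the cation channels of the outer segment close. Cones use their own copies of most of these proteins. Bipolar cells carry the signal to ganglion cells, horizontal and amacrine cells shape it, and Mueller glia support all of these neurons. Mouse photoreceptors are mostly rods, and the homeodomain factor CRX, which binds the core motif TAATCC, activates many photoreceptor genes.

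To show what this motif looks like near photoreceptor genes, the 250 bases before the RefSeq start site (build GRCm38.p6) are printed for Sag and Cngb1, both rod genes, for Crx itself, and for Glul, a Mueller glia gene without the motif. Capitals mark TAATCC, or GGATTA where the motif lies on the other strand. The Sag stretch is at chr1:87803430-87803679 on the plus strand, with the motif at -87 from the start. Cngb1 is at chr8:95306586-95306835 on the minus strand, with motifs at -58 and -25. Crx is at chr7:15879956-15880205 on the minus strand, with motifs at -94 and -21. Glul is at chr1:153899679-153899928 on the plus strand.
Sag: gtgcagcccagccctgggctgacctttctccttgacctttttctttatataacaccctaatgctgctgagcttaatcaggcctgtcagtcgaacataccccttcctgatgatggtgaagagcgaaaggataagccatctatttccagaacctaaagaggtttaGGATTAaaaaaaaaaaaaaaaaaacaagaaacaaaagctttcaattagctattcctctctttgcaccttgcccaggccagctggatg
Cngb1: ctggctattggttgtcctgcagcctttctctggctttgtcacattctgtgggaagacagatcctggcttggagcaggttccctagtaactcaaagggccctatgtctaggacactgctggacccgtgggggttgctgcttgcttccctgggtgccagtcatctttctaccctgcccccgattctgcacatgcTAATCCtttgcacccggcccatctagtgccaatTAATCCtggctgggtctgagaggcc
Crx: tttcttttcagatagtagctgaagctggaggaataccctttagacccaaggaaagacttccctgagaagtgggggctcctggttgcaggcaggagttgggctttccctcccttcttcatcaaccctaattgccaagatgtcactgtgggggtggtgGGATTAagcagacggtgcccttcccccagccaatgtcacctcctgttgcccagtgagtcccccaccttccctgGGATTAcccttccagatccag
Glul: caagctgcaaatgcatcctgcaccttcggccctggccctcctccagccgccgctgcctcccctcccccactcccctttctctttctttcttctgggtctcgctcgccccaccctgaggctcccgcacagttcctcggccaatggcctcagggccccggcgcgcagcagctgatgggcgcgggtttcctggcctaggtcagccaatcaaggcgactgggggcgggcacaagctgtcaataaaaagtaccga
Both strands of all stretches were searched, and a gene with several start sites counted once if any of its stretches held the motif. It was present in 1949 of 27025 genes, or 7.21%. Of the rod phototransduction list, 16 of 22 members matched a start site and 7 of these held the motif: Sag, Cnga1, Gngt1, Cngb1, Gucy2e, Guca1a and Gucy2f. Among photoreceptor transcription factors it was 5 of 12 (Crx, Otx2, Thrb, Samd7 and Samd11), and among cone phototransduction genes 1 of 7 (Gnat2). In lists of other cells it was 2 of 12 rod and ON bipolar genes, 2 of 15 amacrine genes, 1 of 8 Mueller glia genes and 1 of 10 ganglion cell genes. These counts, like that of the cone list, are too small to place a list above or below the share of all genes. Of the 59 genes with a stretch among the 100 highest of each run, 11 held it in run 2 and 8 in run 1. A match describes these letters and is not a measured binding site.

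The highest genes held a limited share of the counts in every mouse. The 10 highest genes held 9.09% and 9.5% of counts in mice 7 and 8 of run 2, and from 10% in mouse 6 to 13.3% in mouse 2 of run 1. The 100 highest held 22.1% and 22.6% in mice 7 and 8, and from 24.5% in mouse 6 to 25.6% in mouse 2. At least 1 CPM was reached in all 7 libraries by 11042 genes, at least 100 CPM by 1100 and at least 1000 CPM by 33. The mitochondrially encoded complex I subunits mt-Nd1 and mt-Nd4 were in the top 10 of every mouse. In the top 20 of every mouse were 9 genes, among them also Gnat1, Gnb1, Prph2, Nrxn3, Syt1 and the mitochondrial ribosomal RNA mt-Rnr2. Prph2, a tetraspanin that shapes the rim of the outer segment discs, averaged 3639 ± 1.68 CPM in run 2 and 4491 ± 1431 CPM in run 1 (SD, n = 2 and 5 mice). Syt1, a synaptic vesicle calcium sensor, averaged 3768 ± 267 CPM in run 2 and 3596 ± 161 CPM in run 1. Nrxn3, a presynaptic adhesion molecule, averaged 4117 ± 97.2 CPM in run 2 and 3088 ± 256 CPM in run 1. Syt1 spans 513 kb and Nrxn3 1612 kb of the genome, and reads in introns were counted. The part of gene length in their ranks was not tested. The ribosomal RNA-like gene CT010467.1 ranked 1 in both mice of run 2, with 1.55% and 2.97% of counts, and held at most 0.00426% in run 1. The run means shared 5 of their top 10 genes, 52 of their top 100 and 606 of their top 1000.

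**Figure D1:**
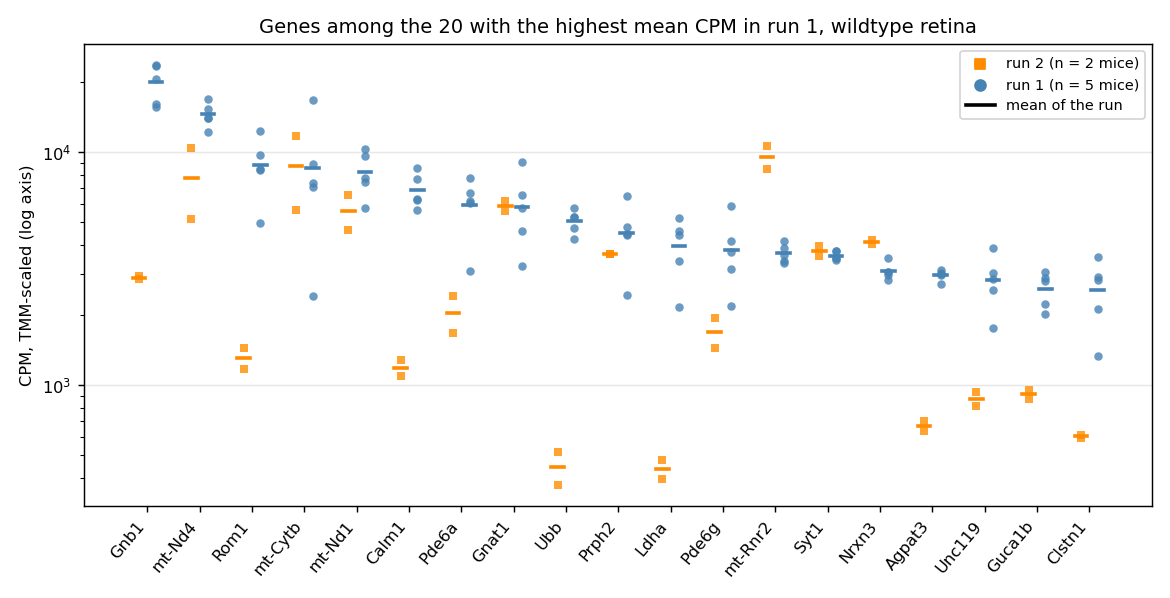
CPM (log axis) of genes among the 20 with the highest mean level in run 1 of wildtype retina, per mouse, with run 2 (squares, 2 mice) left of run 1 (circles, 5 mice) and a bar at each mean. Syt1 and Gnat1 have overlapping runs, and Ubb and Ldha sit lower in both run 2 mice than in every run 1 mouse.

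To put a number on the run, all 17036 genes with enough counts were tested for run 2 minus run 1 with edgeR's quasi-likelihood test and Benjamini-Hochberg adjustment. The test passed 4690 of 17036 genes (27.5%), with 2351 higher (13.8%) and 2339 lower (13.7%) in run 2. Without mouse 7 it passed 2317 genes, of which 1051 were higher, and without mouse 8 it passed 3407 genes, of which 1388 were higher. These shares are the background for every count of list members below. Each library comes from its own mouse by the labels, and p-values measure the spread between these mice. Run and Y-linked expression differ together in these mice, so no direction below belongs to the sequencing run alone.

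**Figure D2:**
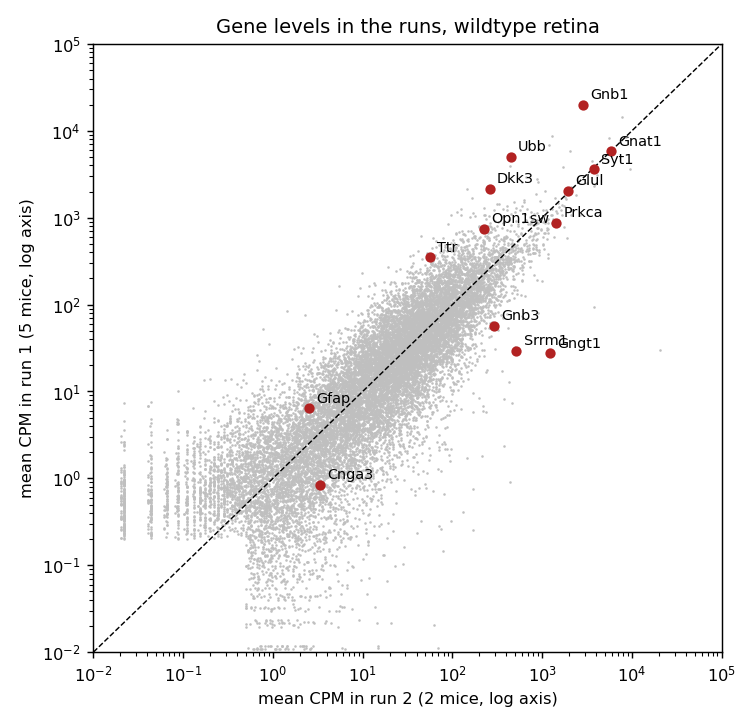
Mean CPM of each gene in run 2 (horizontal, 2 mice) and in run 1 (vertical, 5 mice), both on log axes, with the diagonal of equal levels dashed and selected genes in red. Gnat1, Syt1 and Glul lie near the diagonal, Ubb, Dkk3 and Gnb1 above it and Gngt1, Srrm1 and Gnb3 below it.

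Rod phototransduction was the most abundant class. Its 22 genes summed to 43060 and 46930 CPM in run 2, and to 87010 to 102200 CPM in run 1. That was 4.89% of counts in run 2 and 9.36% in run 1. Of 20 tested members, 4 were higher and 8 lower in run 2. The median log2 difference of the list was 0.05, and 18 of the 22 members reached 10 CPM in all 7 mice. Rcvrn and Guca1a were listed at 0 in every library. Rcvrn lies wholly within other annotated genes, and Guca1a over 99.9% of its span. Reads in such overlaps were not counted, so their 0 does not measure expression.

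Among the transducin subunits, Gnat1, the rod alpha subunit (chromosome 9, 107674474 to 107679712, minus strand), was at 6162 and 5559 CPM in run 2. It was at 5747, 3227, 4601, 6533 and 9084 CPM in mice 1, 2, 4, 5 and 6 of run 1. The runs overlapped, and the log2 difference was 0.01 ± 0.32 (SE, edgeR quasi-likelihood test, adjusted p = 0.993). Gnb1, the beta subunit that rods share with many other cells, was at 2924 and 2841 CPM in run 2. In run 1 it was at 23650, 15570, 20600, 23500 and 16160 CPM, so that the runs did not overlap. It was lower in run 2 by a log2 difference of -2.79 ± 0.22 (edgeR adjusted p = 8.48e-06). Gngt1, the rod gamma subunit, was at 1217 and 1212 CPM in run 2, and at 4.53, 102, 25.8, 6.00 and 1.03 CPM in run 1. Its rank was 47 and 51 in mice 7 and 8, and between 2243 and 13632 in run 1. Its log2 difference was 5.45 ± 1.51 (edgeR adjusted p = 0.0395), and the adjusted p was 0.157 without mouse 7, 0.107 without mouse 8, 0.077 without mouse 4, 0.0534 without mouse 6 and 0.083 with no filter on low counts.

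Of the phosphodiesterase subunits, the alpha and gamma subunits were lower in run 2, and the beta subunit did not pass the test. Pde6a, the alpha catalytic subunit, was at 1678 and 2417 CPM in run 2, against 6646, 3085, 6020, 6143 and 7770 CPM in run 1. Pde6b, the beta catalytic subunit, was at 1558 and 1929 CPM in run 2, against 829, 3746, 1343, 603 and 352 CPM in run 1. Pde6g, the inhibitory gamma subunit, was at 1445 and 1931 CPM in run 2, against 3715, 2177, 3143, 4146 and 5861 CPM in run 1. Pde6a and Pde6g lay below every run 1 value in run 2, whereas the run 1 values of Pde6b lay on both sides of those of run 2. Pde6a (edgeR adjusted p = 0.00454) and Pde6g (0.0216) passed as lower in run 2. Without mouse 7 the adjusted p was 0.0684 for Pde6a and 0.185 for Pde6g, and for Pde6g it was also 0.0615 without mouse 8 and 0.0556 with voom in place of edgeR.

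The remaining rod genes ranged widely in level. Sag, the rod arrestin that quenches the light-activated pigment, was at 3292 and 2997 CPM in run 2, against 2406, 2274, 2462, 2190 and 3317 CPM in run 1. Its log2 difference of 0.31 ± 0.18 did not pass (edgeR adjusted p = 0.224). Without mouse 6, the highest mouse of run 1, it was 0.43 with an adjusted p of 0.0197. Rom1, a disc rim tetraspanin, was at 1169 and 1438 CPM in run 2, against 9726, 4985, 8352, 8446 and 12370 CPM in run 1. It was lower in run 2 by -2.75 ± 0.32 on the log2 scale (edgeR adjusted p = 0.000126). The cyclic GMP-gated channel subunits Cnga1 and Cngb1 averaged 1083 ± 184 and 597 ± 205 CPM in run 2, and 2007 ± 365 and 1371 ± 220 CPM in run 1. Guca1b, a calcium sensor of guanylate cyclase, averaged 911 ± 56.8 CPM in run 2 and 2596 ± 441 CPM in run 1. Gucy2e and Gucy2f, the retinal guanylate cyclases, averaged 383 ± 88.2 and 118 ± 13.8 CPM in run 2, and 334 ± 131 and 30.8 ± 7.76 CPM in run 1. Rgs9, which speeds transducin's return to rest, averaged 1671 ± 172 CPM in run 2 and 1389 ± 307 CPM in run 1.

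The cone genes summed to 1600 and 1790 CPM in run 2, and to 2229 to 3225 CPM in run 1. Of the 11 members, 10 reached 10 CPM in all 7 mice, and 2 were higher and 5 lower in run 2. Opn1sw, the short wavelength cone pigment (chromosome 6, 29376671 to 29388468, minus strand), was at 197 and 257 CPM in run 2. In run 1 it was at 763, 654, 604, 785 and 920 CPM. The runs did not overlap, and it was lower in run 2 by -1.71 ± 0.22 on the log2 scale (edgeR adjusted p = 0.000158). Its rank was 574 to 851 in run 2 and 99 to 176 in run 1. Opn1mw, the medium wavelength pigment, was at 162 and 109 CPM in run 2, against 250, 148, 184, 225 and 324 CPM in run 1 (37.4% of its span is overlapped by other genes).

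Gnat2, the cone transducin alpha subunit, was at 82.6 and 85.0 CPM in run 2, against 277, 239, 233, 232 and 216 CPM in run 1. Gnb3, the cone beta subunit, which ON bipolar cells also use, was at 294 and 291 CPM in run 2, against 49.7, 54.2, 62.6, 47.2 and 73.1 CPM in run 1. The run 2 values of Gnat2 were all lower and those of Gnb3 all higher than in run 1. Arr3, the cone arrestin, averaged 233 ± 51.6 CPM in run 2 and 617 ± 166 CPM in run 1. Pde6h, the cone inhibitory subunit, averaged 180 ± 0.555 CPM in run 2 and 35.4 ± 12.8 CPM in run 1. Cnga3, a cone channel subunit, was at 2.43 and 4.31 CPM in run 2 and between 0.0541 and 2.41 CPM in run 1.

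Rod and cone members of 12 fixed pairs, which included 1 pair of cone opsins and 1 of Mueller glia genes, were compared within each library as the log2 ratio of counts plus 0.5. Such a ratio is free of the library size. It compares counts that were not divided by length, and reads in introns were counted. Over tested genes put by genomic span into 5 groups, the median level was 42.1 CPM in the longest and 3.89 CPM in the shortest genes in run 2, and 31.5 and 3.92 CPM in run 1, and the part of gene length in the ratios was not tested. The rod or first gene was higher in 7 of 7 mice in 11 of 12 pairs (exact 2-sided sign-flip permutation test, p = 0.0156, the smallest value 7 mice allow, and 0.0171 after Benjamini-Hochberg adjustment over the 12 pairs). In run 1 alone the smallest possible p of that test is 0.0625. The runs did not overlap in 10 pairs, with a smallest possible exact p of 0.0952 for a run difference. How often the runs overlap in other gene pairs was not tested, so this number is not particular to these pairs.

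Slc24a1 exceeded Slc24a2, the rod and cone cation exchangers, by a log2 ratio of 2.12 ± 0.81 in run 2 and 2.29 ± 0.19 in run 1 (SD, n = 2 and 5 mice). In this pair the runs overlapped. Gnat1 exceeded Gnat2 by 6.13 ± 0.13 in run 2 and 4.53 ± 0.61 in run 1. Gnb1 exceeded Gnb3 by 3.30 ± 0.02 in run 2 and 8.43 ± 0.50 in run 1. Opn1sw exceeded Opn1mw by 0.76 ± 0.67 in run 2 and 1.76 ± 0.24 in run 1.

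The exception was Gngt1 over Gngt2, the rod and cone transducin gamma subunits. Its log2 ratio was 4.73 and 3.75 in run 2, and -6.41, -1.01, -3.60, -5.86 and -8.75 in mice 1, 2, 4, 5 and 6 of run 1. Every mouse of run 2 had more Gngt1, and every mouse of run 1 had more Gngt2 (exact sign-flip permutation test over 7 mice, p = 0.25). Other genes overlap 61.8% of the span of Gngt2 and none of that of Gngt1.

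**Figure D3:**
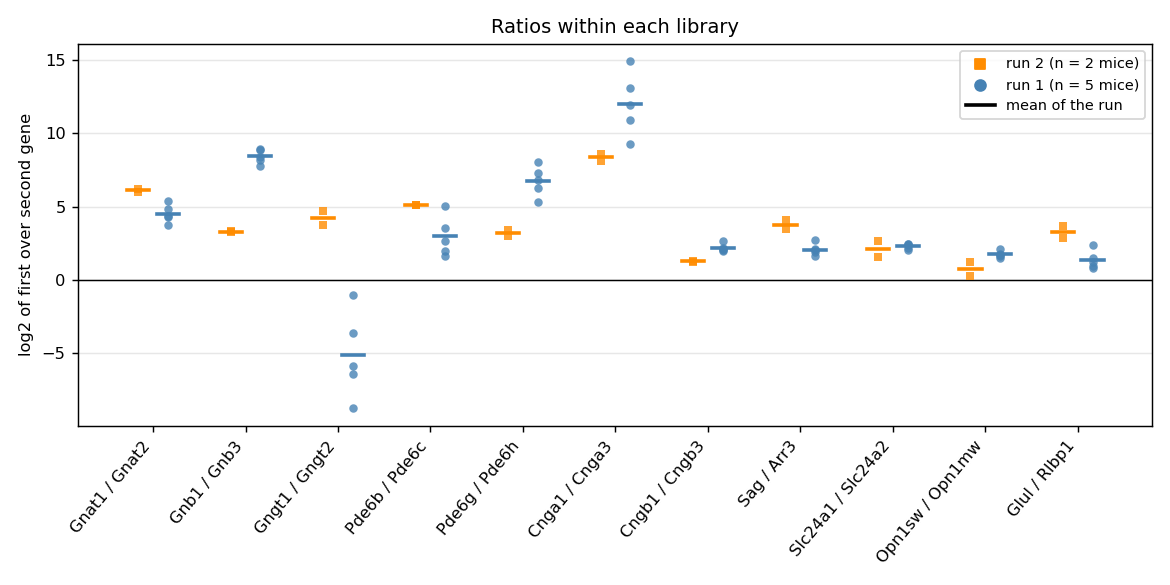
Log2 ratio of the first over the second gene of each pair shown, per mouse, with run 2 (squares, 2 mice) left of run 1 (circles, 5 mice), a bar at each mean and a line at equal levels. All points lie above the line except the 5 run 1 mice of Gngt1 over Gngt2.

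Of 12 factors that specify or maintain photoreceptors, 9 reached 10 CPM in all 7 mice. Neurod1, which lies wholly within other annotated genes, was listed at 0. Crx averaged 491 ± 43.2 CPM in run 2 and 469 ± 126 CPM in run 1. Nrl, which directs the rod fate, averaged 847 ± 167 CPM in run 2 and 1852 ± 236 CPM in run 1. Nr2e3, which represses cone genes in rods, averaged 666 ± 151 CPM in run 2 and 908 ± 212 CPM in run 1. Thrb, a thyroid hormone receptor needed for medium wavelength cones, averaged 479 ± 75.6 CPM in run 2 and 212 ± 30.3 CPM in run 1. Of 11 tested factors, 2 were higher and 2 lower in run 2. Samd11, a photoreceptor repressor, was at 33.5 and 25.9 CPM in run 2, and at 0 in 4 of 5 mice of run 1, with 0.0492 CPM in mouse 5. Its lack of counts in run 1 was not explained by a test and is not read as absent expression.

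Among bipolar cell markers, Prkca, protein kinase C alpha of rod bipolar cells (chromosome 11, 107933387 to 108343928, minus strand), was at 1506 and 1375 CPM in run 2. It was at 875, 760, 830, 785 and 1151 CPM in run 1, with ranks of 32 and 36 in run 2 and 71 to 131 in run 1. It was higher in run 2 by 0.71 ± 0.18 on the log2 scale (edgeR adjusted p = 0.0118). The adjusted p was 0.167 without mouse 7 and 0.0716 without mouse 8. Trpm1, the ON bipolar channel, was at 574 and 713 CPM in run 2, against 1287, 748, 911, 1091 and 1445 CPM in run 1.

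Gng13, the gamma subunit of the ON bipolar G protein, was at 71.5 and 34.7 CPM in run 2 and at 0 counts in all 5 mice of run 1. The reason for this 0 was not tested, and it is not read as absent expression. Pcp2 lies wholly within another annotated gene and was listed at 0. The rod and ON bipolar list summed to 2983 and 2963 CPM in run 2 and to 2629 to 3963 CPM in run 1, with 3 members higher and 4 lower of 14 tested. The OFF and cone bipolar list was led by Grik1, a kainate receptor subunit of OFF cells. It averaged 373 ± 4.77 CPM in run 2 and 585 ± 65.0 CPM in run 1. Of 12 tested members, 1 was higher and 6 lower in run 2.

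Horizontal cell genes were few. Prox1, which amacrine and bipolar cells also express, averaged 226 ± 13.7 CPM in run 2 and 133 ± 12.9 CPM in run 1. Onecut2 averaged 48.4 ± 27.3 CPM in run 2 and 104 ± 14.8 CPM in run 1. Onecut1 was at 0 in mouse 7 and in the 5 mice of run 1, and at 0.659 CPM in mouse 8.

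Amacrine cell genes summed to 1315 and 1332 CPM in run 2, and to 1924 to 2321 CPM in run 1, with 0 members higher and 6 lower of 15 tested in run 2. Tfap2b, a transcription factor of amacrine cells, averaged 221 ± 4.52 CPM in run 2 and 425 ± 27.7 CPM in run 1. Slc32a1, the vesicular GABA and glycine transporter, was at 27.7 and 45.6 CPM in run 2, against 484, 393, 416, 358 and 196 CPM in run 1. It was lower in run 2 by -3.33 ± 0.37 (edgeR adjusted p = 6.75e-05). Gad1 and Gad2 make GABA. Gad1 was at 135 and 97.5 CPM in run 2 and between 1.79 and 55.4 CPM in run 1, whereas Gad2 was at 35.1 and 28.5 CPM in run 2 and between 82.5 and 117 CPM in run 1. Chat, of starburst amacrine cells, averaged 24.0 ± 11.9 CPM in run 2 and 13.7 ± 7.54 CPM in run 1. Th, of dopaminergic amacrine cells, averaged 2.02 ± 0.989 CPM in run 2 and 3.53 ± 1.53 CPM in run 1.

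Ganglion cell genes summed to 694 and 769 CPM in run 2, and to 1126 to 1541 CPM in run 1, with 2 members higher and 6 lower of 15 tested. Thy1, a surface glycoprotein, was at 128 and 102 CPM in run 2, against 388, 222, 313, 385 and 573 CPM in run 1. Nefm, a neurofilament subunit, averaged 71.8 ± 26.3 CPM in run 2 and 222 ± 40.3 CPM in run 1. Rbpms2 was at 11.6 and 22.8 CPM in run 2, against 215, 104, 164, 209 and 213 CPM in run 1, while its relative Rbpms was at 69.0 and 59.5 CPM in run 2, against 25.3, 45.1, 41.8, 36.3 and 23.9 CPM in run 1. The runs did not overlap in either gene, and the order of the runs was opposite. Opn4, the pigment of intrinsically photosensitive ganglion cells, was at 1.95 and 0.966 CPM in run 2 and between 2.32 and 8.89 CPM in run 1, with 95.0% of its span overlapped. Nefl and Tubb3 lie wholly within overlaps and were listed at 0.

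Among glial genes, Glul, the glutamine synthetase of Mueller glia (chromosome 1, 153899944 to 153909723, plus strand), was at 2377 and 1492 CPM in run 2. It was at 1922, 2730, 1842, 1993 and 1803 CPM in run 1, so the runs overlapped, and its rank was 17 to 35 in all 7 mice. Its log2 difference was -0.09 ± 0.22 (edgeR adjusted p = 0.808). Rlbp1, a retinoid-binding protein of the same cells, was at 190 and 207 CPM in run 2, against 818, 516, 650, 1024 and 1023 CPM in run 1, and was lower in run 2 by -2.03 ± 0.28 (adjusted p = 0.000268). Dkk3 was at 294 and 230 CPM in run 2, against 2518, 1375, 1812, 2708 and 2352 CPM in run 1, and was lower in run 2 by -3.04 ± 0.29 (adjusted p = 2.29e-05). Apoe, a lipid carrier, was at 566 and 496 CPM in run 2, against 132, 68.4, 111, 146 and 207 CPM in run 1, and was higher in run 2 by 2.00 ± 0.31 (adjusted p = 0.000613). Of 13 tested Mueller glia members, 3 were higher and 3 lower in run 2. Sox2 was listed at 0 and lies wholly within another gene.

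Gfap, the intermediate filament of astrocytes and reactive glia (chromosome 11, 102887336 to 102900912, minus strand), was at 3.08 and 2.02 CPM in run 2. It was at 3.23, 4.12, 6.13, 9.10 and 9.74 CPM in run 1. Its log2 difference of -1.34 ± 0.70 did not pass (edgeR adjusted p = 0.182). No part of its span is overlapped. Vim, another intermediate filament of glia, averaged 41.0 ± 2.10 CPM in run 2 and 75.2 ± 25.4 CPM in run 1 and did not pass (adjusted p = 0.0887, edgeR). Of 11 tested reactive gliosis members, 1 was higher and 0 lower in run 2. That member, Stat3, averaged 153 ± 28.8 CPM in run 2 and 57.1 ± 11.5 CPM in run 1. The astrocyte list summed to 12.9 and 12.7 CPM in run 2 and to 4.42 to 12.0 CPM in run 1. Of its 6 tested members, 0 were higher and 0 lower, with a median log2 difference of 1.97. Microglia genes were low, with sums of 47.0 and 46.0 CPM in run 2 and of 56.9 to 80.9 CPM in run 1. These sums lack P2ry12 and Itgam, which were listed at 0 with 100% and 99.9% of their spans overlapped by other genes. Ctss, a lysosomal protease, led the microglia genes of run 1 at 19.7 ± 7.05 CPM, with 6.79 ± 2.38 CPM in run 2. Of 14 tested microglia members, 0 were higher and 1, Ctss, was lower in run 2, with a median log2 difference of -0.03. Ctss did not pass with voom in place of edgeR (adjusted p = 0.0632). Nor did it pass without mouse 1, 4 or 5 (edgeR adjusted p = 0.0923, 0.0873 and 0.0873). Csf1r, the receptor for colony-stimulating factor, averaged 4.40 ± 2.04 CPM in run 2 and 9.10 ± 3.63 CPM in run 1.

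Ordered by their sums, the cell class lists began in both runs with rods, Mueller glia, rod and ON bipolar cells, cones, amacrine cells, ganglion cells and OFF and cone bipolar cells. The sums depend on which genes a list holds, and levels of different genes do not count cells. In bulk tissue, fewer cells of a type and less RNA per cell cannot be told apart. Each of the first 5 lists exceeded the next in 7 of 7 mice. Ganglion cell genes exceeded OFF and cone bipolar genes in 1 of 2 mice of run 2 and in 4 of 5 mice of run 1, so these neighbours did not differ beyond their spread. Of the 15 lists plotted, those of lens, fibroblasts and astrocytes came last in both runs.

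**Figure D4:**
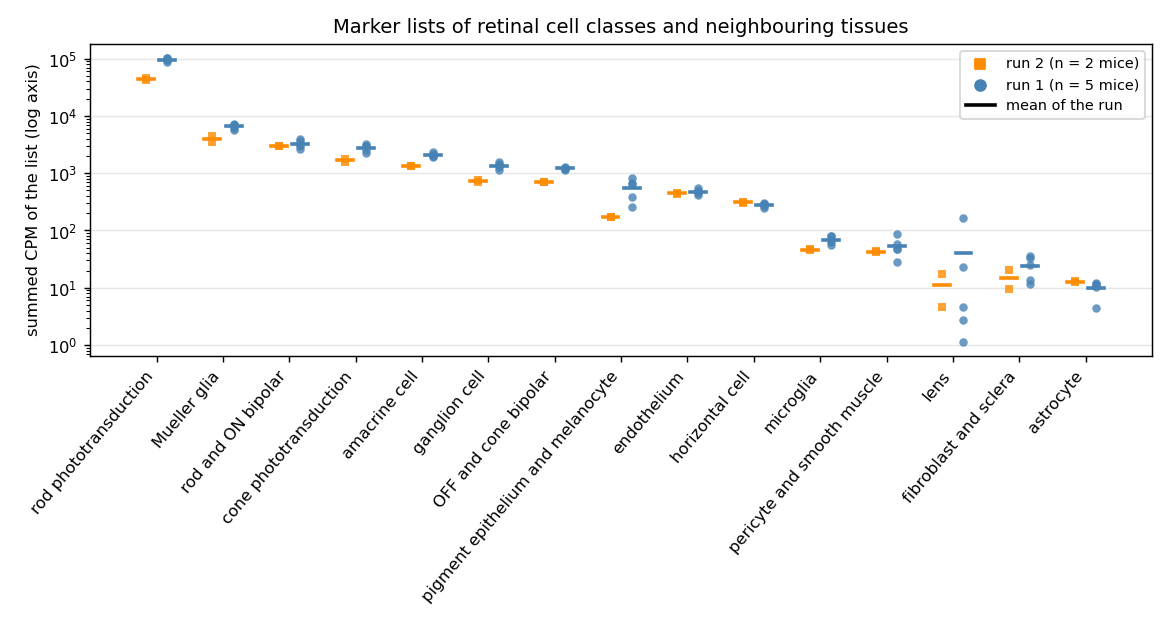
Summed CPM (log axis) of the marker lists of retinal cell classes and neighbouring tissues, per mouse, with run 2 (squares, 2 mice) left of run 1 (circles, 5 mice) and a bar at each mean. Rod genes stand above all other lists in all 7 mice, and lens genes have the widest spread in run 1.

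Genes of the photoreceptor ribbon synapse, where rods and cones release glutamate without pause, were detected in all 7 mice. All 17 reached 1 CPM and 16 reached 10 CPM in all 7 mice, with sums of 9724 and 9905 CPM in run 2 and of 10890 to 12330 CPM in run 1. Of these, 1 was higher and 3 lower in run 2. Rims2, a scaffold of the release site, averaged 1171 ± 2.50 CPM in run 2 and 970.6 ± 54.1 CPM in run 1. Unc119, a lipid-binding chaperone of photoreceptors, was at 809 and 937 CPM in run 2, against 3020, 1763, 2547, 2862 and 3876 CPM in run 1. Cacna1f, the calcium channel of the ribbon, was at 157 and 195 CPM in run 2, against 49.7, 35.1, 52.1, 59.3 and 86.8 CPM in run 1. For Ctbp2, which encodes the ribbon protein RIBEYE, the level was between 2.53 and 19.5 CPM in all 7 mice, with 99.3% of its span overlapped.

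Mitochondrially encoded RNA made up 5.16% and 3.74% of counts in mice 7 and 8, and between 3.23% and 5.27% in the 5 mice of run 1. The complex I subunit mt-Nd4 was at 10380 and 5138 CPM in run 2, against 13970, 16940, 14060, 15350 and 12180 CPM in run 1. The cytochrome b gene mt-Cytb was at 11760 and 5644 CPM in run 2, against 7071, 16790, 8920, 7346 and 2410 CPM in run 1, so the runs overlapped. The large ribosomal RNA mt-Rnr2 was at 8433 and 10630 CPM in run 2, against 3603, 3877, 3410, 4155 and 3326 CPM in run 1, and was higher in run 2 by 1.38 ± 0.15 on the log2 scale (edgeR adjusted p = 5.59e-05). Of 15 mitochondrial genes 5 were listed at 0, among them mt-Co2, mt-Co3 and mt-Atp6. Other genes overlap none of the span of mt-Co2, 0.128% of that of mt-Co3 and 6.46% of that of mt-Atp6. Why these genes had no counts was not tested, and their 0 is not read as absent expression. The mitochondrial shares of counts given above hold nothing from these 5 genes.

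Clock genes move with the time of day, which the labels do not give for these mice. Of 13 tested members, 4 were higher and 2 lower in run 2. Rorb, a nuclear receptor of photoreceptors and amacrine cells, was the highest, at 969.3 ± 23.8 CPM in run 2 and 736.8 ± 112 CPM in run 1. Nr1d2, a clock repressor, was at 117 and 103 CPM in run 2, against 642, 626, 656, 694 and 591 CPM in run 1. Per2, another clock repressor, was at 46.1 and 57.6 CPM in run 2, against 8.30, 17.1, 8.39, 3.84 and 9.15 CPM in run 1. The runs did not overlap in either gene. Of the immediate early genes, which neurons switch on within minutes of activity, Fos was at 13.0 and 16.3 CPM in run 2, against 35.3, 36.8, 86.1, 86.0 and 34.2 CPM in run 1. The part of the time of day in these values was not tested.

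Genes of tissues that touch the retina were measurable in part. The pigment epithelium and melanocyte list summed to 171 and 170 CPM in run 2, and to 262 to 812 CPM in run 1. Of 11 tested members, 0 were higher and 2 lower in run 2, and the median log2 difference of the list was -0.05. The 2 were Ttr and Rgr, so the difference of the sums does not stand for the list. Ttr, the retinol carrier partner transthyretin, was at 52.3 and 59.7 CPM in run 2, against 402, 439, 125, 233 and 566 CPM in run 1. Rgr, an opsin that Mueller glia also express, was at 24.6 and 13.0 CPM in run 2, against 164, 124, 62.3, 75.5 and 171 CPM in run 1. Mitf, another member, averaged 58.2 ± 8.09 CPM in run 2 and 44.3 ± 8.51 CPM in run 1 and did not pass (edgeR adjusted p = 0.307). Rpe65, the isomerase that defines the pigment epithelium, was at 7.91 and 7.34 CPM in run 2 and between 4.65 and 17.1 CPM in run 1. The lens list summed to 17.3 and 4.61 CPM in run 2, and to 168, 4.65, 22.8, 2.75 and 1.14 CPM in mice 1, 2, 4, 5 and 6 of run 1. Its defining member Cryaa lies wholly within an overlap and was listed at 0, and 8 of 20 members were at 0 in all libraries. Endothelial genes summed to 460 and 442 CPM in run 2 and to 420 to 544 CPM in run 1, mostly from the VEGF receptors Kdr and Flt1. Whether these tissues were part of the dissected whole-mounts was not tested.

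Genes named by the study's own question were expressed at moderate levels. Gne, the enzyme that starts sialic acid synthesis, was at 46.2 and 55.5 CPM in run 2, against 156, 96.6, 129, 117 and 125 CPM in run 1. Of the sialyltransferases, which attach sialic acid to glycans, St8sia1 led run 1 at 182 ± 29.2 CPM, with 86.9 ± 26.2 CPM in run 2. St3gal1 led run 2 at 158 ± 40.5 CPM, with 30.9 ± 3.72 CPM in run 1. This order leaves out the sialyltransferase St8sia3, which lies wholly within other annotated genes and was listed at 0. Nans and Nanp of sialic acid synthesis were also listed at 0, with 68.5% and 99.8% of their spans overlapped. None of these 0 values is read as absent expression. C3, the central complement component, was at 53.0 and 91.4 CPM in run 2, against 181, 97.8, 129, 166 and 206 CPM in run 1. Its log2 difference was -1.11 ± 0.32 (edgeR adjusted p = 0.0206), with an adjusted p of 0.227 without mouse 7 and 0.0514 without mouse 1. Of 29 complement genes, 4 reached 10 CPM in all 7 mice and 8 stayed under 1 CPM in all. Vtn, vitronectin, was the highest in both runs, at 382 ± 19.5 CPM in run 2 and 310 ± 121 CPM in run 1.

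Some energy genes differed between the runs, in both directions. Ldha, the lactate dehydrogenase A subunit, was at 396 and 474 CPM in run 2, against 4406, 2154, 3397, 4599 and 5198 CPM in run 1. Hk2, hexokinase 2 of photoreceptors, was at 705 and 779 CPM in run 2, against 315, 286, 360, 251 and 159 CPM in run 1. Gapdh, a glycolytic enzyme found in all cells, was at 294 and 181 CPM in run 2, against 6.03, 3.77, 3.09, 3.54 and 12.9 CPM in run 1. Why so few Gapdh reads were counted in run 1 was not tested, and these values are not read as low expression. Pkm, pyruvate kinase, had overlapping runs, with 1296 ± 78.7 CPM in run 2 and 1248 ± 433 CPM in run 1. Of the 12 glycolysis and creatine kinase genes, 6 were higher and 2 lower in run 2.

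Of the genes with the smallest p for the run difference, Srrm1, a splicing factor, was at 526 and 509 CPM in run 2 and between 25.7 and 33.6 CPM in run 1. Ptms, parathymosin, was at 452 and 295 CPM in run 2 and between 5.36 and 9.63 CPM in run 1. Abca4, the retinoid transporter of photoreceptor discs, was at 333 and 378 CPM in run 2 and between 11.7 and 21.9 CPM in run 1, with 40.5% of its span overlapped. In the other direction, Rpl4, a ribosomal protein, was at 123 and 170 CPM in run 2 and between 1766 and 2392 CPM in run 1. Ubb, a polyubiquitin gene, was at 373 and 516 CPM in run 2 and between 4249 and 5725 CPM in run 1. Ift20, of the transport system of cilia, was at 104 and 124 CPM in run 2 and between 893 and 1405 CPM in run 1. Rpl28 was at 147 and 91.7 CPM in run 2 and at 0 counts in all 5 mice of run 1. Ribosomal protein genes have many near-identical copies in the genome, so their counts are uncertain. In all, 40 genes had at least 10 CPM in both run 2 mice and under 1 CPM in all 5 run 1 mice, and 1 gene showed the reverse. What made counts of these genes nearly absent in only 1 run was not tested.

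The run difference varied with gene length. Over genes put by their genomic span into 5 groups of near equal number, the median log2 difference of run 2 minus run 1 was -0.45 in the shortest genes, then -0.15, -0.09, 0.09 and 0.23 in the longest. Of the 100 highest genes, 45 in run 2 and 22 in run 1 spanned at least 200 kb. Reads in introns were counted with those in exons. Across 17005 genes, the GC content of the last 300 transcript bases had a Spearman correlation of 0.029 with the run difference, a description over genes that share libraries. Over 5 groups by GC content, the median log2 difference was 0.0472 in the lowest, then -0.0737, -0.095, -0.0911 and 0.181 in the highest. The relation thus did not run in 1 direction, which a rank correlation cannot show. The part of GC content in the run difference was not tested.

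Within run 1, mice 2 and 6 stood at opposite ends. Of 8866 genes with a mean of at least 10 CPM in run 1, 372 had an SD of log2 CPM of at least 1, and in 318 of these (85.5%) mouse 2 was the highest and mouse 6 the lowest. Over all 8866 genes that order held for 20.3% and the reverse order for 19.4%. The Spearman correlation of each gene's deviation with GC content was -0.246 in mouse 2 and 0.204 in mouse 6, and between -0.0774 and 0.0614 in the other 3 mice. The part of GC content in this order was not tested. Among the 15 most variable genes, Car2, a carbonic anhydrase of Mueller glia, was at 105, 450, 154, 67.9 and 12.3 CPM in mice 1, 2, 4, 5 and 6. Slco4a1, an organic anion transporter, was at 24.7, 108, 62.4, 31.3 and 3.52 CPM in the same mice. Egr1, an immediate early gene, was at 16.4, 54.1, 126, 81.9 and 2.71 CPM. Crybb2, a lens crystallin, was at 78.8 CPM in mouse 1, 8.72 CPM in mouse 4 and at most 1.00 CPM in the other 3. Pde6b was also highest in mouse 2 and lowest in mouse 6 of run 1, while Gnat1 and Pde6g were highest in mouse 6 and lowest in mouse 2.

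**Figure D5:**
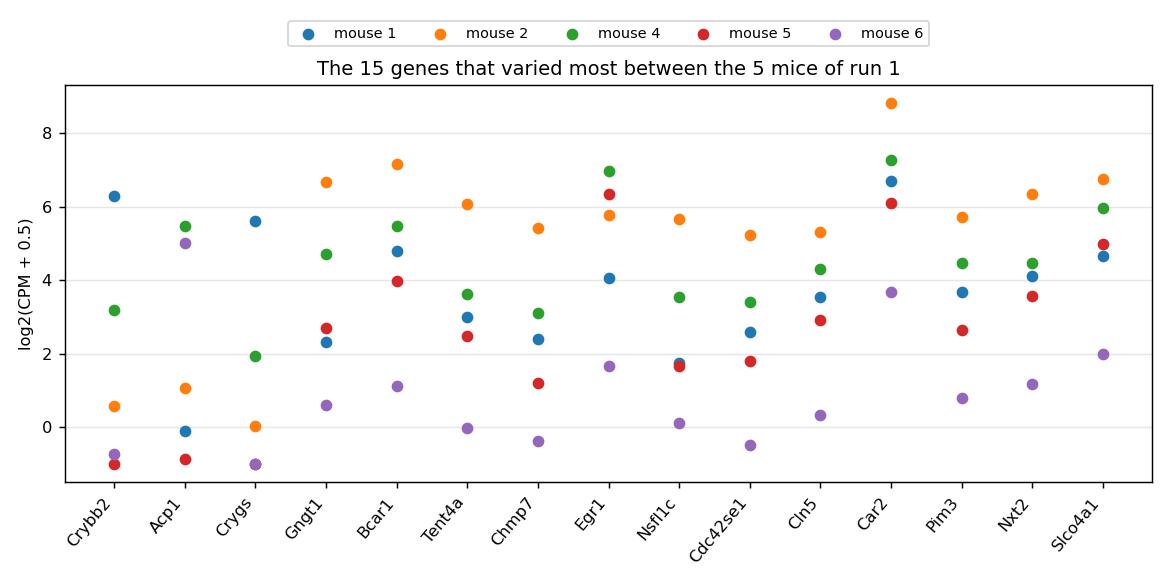
Log2 of CPM plus 0.5 in the 5 mice of run 1 for the 15 genes with the largest SD of log2 CPM in that run. Mouse 2 is the highest in 11 genes and mouse 6 the lowest in 12, and the lens crystallins Crybb2 and Crygs are highest in mouse 1.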

How the data were processed

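The authors deposited raw read counts for each gene. The submitters' processing notes name STAR 2.7.3a for alignment, featureCounts with Subread 2.0.0, and the builds mm10 and GRCm38. Per the file headers, the counter was version 2.0.3 with Ensembl release 101, exon and whole-gene features, no strand setting and no counting of reads that overlapping genes share. All of the 12949 genes wholly inside other genes were at 0. Symbols were matched to 55141 of 55487 genes.

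Counts were tested in R 4.3.3 with edgeR 4.0.16 (filterByExpr, minimum count 10, TMM factors, robust quasi-likelihood test with 5 residual degrees of freedom, Benjamini-Hochberg threshold 0.05). Standard errors come from the quasi-likelihood F statistic. Tested on simulated counts of 16227 genes, the procedure recovered 5.21% of 2-fold and 40.2% of 4-fold differences and called 8 unchanged genes. The share recovered in the comparison of the runs, where 4690 of 17036 genes passed, was not tested. Between the libraries of a run, counts differed by more than sampling noise. Depths were 17736611 to 22612693 counts. The labels name no molecular identifiers, so reads copied by PCR count more than once.

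Named genes were the 20 highest of run 1, given markers, Gne, C3, pair genes, up to 4 highest members of each list and members at 0, up to 12 higher and 12 lower genes by p, and the 15 most variable genes of run 1. Further list members were named after their values were seen. Members and lists were chosen with earlier results of these data known. Alternatives were DESeq2 1.42.0, voom in limma 3.58.1, RLE factors, other filters, other library sizes, a GC offset and leaving out mice. The GC offset and leaving out mice 2 and 6 together were chosen after seeing the data. Some genes that this rule names, and results that need them, are not reported here.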

Additional observations from a re-analysis of the deposited data

Results flagged for a closer look

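Of 89 levels checked over the 5 mice of run 1, 13 had 1 mouse far from the others by Dixon's test, where chance alone gives about 1 in 20. The levels include the 15 genes chosen for their spread over these same mice, 8 of which are among the 13, and lens genes beside their own sum, so the number of such levels is no sign of an excess. Mouse 1 was the far one in 5 of them. Its lens sum was 168.4 CPM with the next at 22.8 CPM, led by Crybb2 at 78.82 CPM and Crygs at 48.33 CPM. Its astrocyte sum was the lowest, at 4.418 CPM, with the next at 10.5 CPM. Its Y-linked sum of 1.562 CPM was the highest of run 1 and far below the 322 and 288.7 CPM of run 2.

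Mouse 2 was the highest in 7 of them, with Glul at 2730 CPM, Gngt1 at 101.6 CPM, Tent4a, a poly(A) polymerase, at 67.01 CPM, Chmp7 at 42.1 CPM, Nsfl1c at 50.87 CPM, Cdc42se1 at 37.39 CPM and Nxt2 at 80.96 CPM. Mouse 6 was the highest for Sag, at 3317 CPM.

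The log2 ratio of Gngt1 over Gngt2 was on average 4.24 in run 2 and -5.13 in run 1, with every mouse of a run on the same side. The exact permutation test of the difference cannot go below 0.0952 with 2 and 5 mice.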

How the results depend on the processing

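No paired analysis was possible because the runs hold different mice, numbered differently. The count of 4690 genes differing between runs ranged from 2317 (without mouse 7) to 5379 when mice were left out in turn, with 1051 to 2726 genes higher and 1266 to 2659 lower in run 2. Without mouse 8 it was 3407, with 1388 higher. DESeq2 gave 5592 (2463 higher), voom 5831 (3385), RLE factors 4668 (2246) and the GC offset 4742 (2182). Without mice 2 and 6 together it was 6185, chosen after seeing the data, as was the GC offset. In run 1 alone 0 of 12 pairs passed, since the exact permutation test with 5 mice cannot go below 0.0625. Of the named and listed genes' differences over all alternatives, 5222 kept their side of the threshold, 138 lost it, 125 gained it and 0 turned round. With library sizes taken from total counts, 25 list sums of a run moved by more than 1 SD and 39 by less. With mitochondrial genes left out of those totals, 27 moved by more and 35 by less. Leaving out 1 mouse always moves a mean by less than 1 SD, so the list sums without a mouse cannot show a shift of that size. Levels under 1 CPM rest on few reads at these depths.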
